A study of Homo sapiens with 4 samples.

Results

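FGF1, other fibroblast growth factor (FGF) ligands and the FGF receptors were followed in TPC1 cells, an established human papillary thyroid cancer line, without and with added C1orf106. The 9 genes were taken by name: the ligands FGF1, FGF2 and FGF5, the kinase receptors FGFR1 to FGFR4, the receptor FGFRL1, which lacks a kinase domain, and the carrier FGFBP1. Of these, 8 are listed among the 13165 genes of the deposited table and FGFBP1 is not listed. RNA from 4 libraries was sequenced, 2 of the group TPC1-Vector and 2 of the group TPC1-C1orf106. TPC1-Vector cells carry the empty vector. TPC1-C1orf106 cells carry the same vector expressing C1orf106, the older symbol of INAVA. Both groups were grown in DMEM with 10% serum and selected as stable lines in 0.5 μg/mL puromycin for 2 weeks. In the study's methods the C1orf106 cDNA sits in the retroviral vector pQCXIP. The sources used here do not say whether the sequenced lines were clones or pools, nor whether the libraries of a group came from separate cultures.

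FGF ligands bind receptor tyrosine kinases together with heparan sulfate, a sulfated sugar chain on cell surface and matrix proteins. The ligand pairs the receptors, which phosphorylate adaptors such as FRS2 and so switch on the RAS-ERK pathway, and the pathway induces its own inhibitors of the Sprouty, Spred and DUSP families and the PEA3 group of ETS factors. FGF1 is unusual among the ligands in that it binds all 4 kinase receptors and their splice forms, and in that it has no signal peptide and leaves the cell by a route that does not pass through the endoplasmic reticulum. In thyroid tissue FGF1 and FGF2 are known as growth factors of follicular cells. The question here was which receptor transcripts the TPC1 cells hold that could receive FGF1.

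Each gene has 1 FPKM value per group, that is, fragments scaled to transcript length and to the size of the library, in which the authors had already combined the 2 libraries. These values give no spread between libraries, so no SD is shown and no test was made from them, and the depth behind them is unknown. The table also carries the authors' own test of each gene, which was not used here. Fold changes are given as the difference of log2(FPKM + 0.5), TPC1-C1orf106 minus TPC1-Vector, which understates the difference of weakly expressed genes, and "past 2-fold" means a difference of at least 1 on that scale. The background is the 12305 genes whose mean over the groups reached 0.5 FPKM. Their median log2 fold change was 0.0033. The summed FPKM of all listed genes was 2.03e+06 in TPC1-Vector and 467066 in TPC1-C1orf106, and most of the former was SNORA57, a small nucleolar RNA at 1.57e+06 FPKM there and listed at 0 in TPC1-C1orf106. C1orf106 itself measured 7.96 FPKM in TPC1-Vector cells and 123 FPKM where it was added, in the direction of the labels. Among markers of thyroid follicular cells, PAX8 (60.1 and 55.7 FPKM) and FOXE1 (5.26 and 5.89 FPKM) are listed, while the differentiation genes TG, TSHR, SLC5A5 and DIO1 and the factor NKX2-1 are not. Of 6 epithelial markers, the keratins KRT8 (23.4 and 10.5 FPKM), KRT18 (140 and 212 FPKM) and KRT7 (1.97 and 2.01 FPKM) are listed, with sums of 166 and 224 FPKM, and EPCAM, CDH1 and KRT19 are not. KRT8 and KRT18 share their deposited position and differed in opposite directions, with log2 fold changes of -1.12 and 0.59. PAX8 likewise shares its deposited position with another gene. Among markers of other cell types, 3 of 6 fibroblast genes (sum 3.56 and 2.19 FPKM), 0 of 4 endothelial genes and 1 of 4 leukocyte genes (CD68, 5.76 and 8.67 FPKM) are listed.

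FGF1 was the member with the largest log2 fold change in either direction. It measured 3.25 FPKM in TPC1-Vector cells and 10.6 FPKM in cells with added C1orf106, a ratio of 3.28 and a log2 fold change of 1.57. In FPKM itself, FGF1 differed by 7.39 and FGFR4 by more, -11.1. By log2 fold change, FGF1 stood at rank 22 from the highest of the 12305 genes. It was the 1 member past 2-fold higher, and 0 members were past 2-fold lower, where 0.61% of all genes kept were past 2-fold higher and 0.244% past 2-fold lower. At 1.5-fold, 2 members were higher (FGF1 and FGF5) and 1 was lower (FGFR4), against 2.24% and 1.45% of all genes. To show how far genes of a like level differ between the columns, each member was set beside the genes whose mean FPKM lay within 2-fold of its own. Of the 3969 such genes for FGF1, the middle 90% had log2 fold changes between -0.38 and 0.37, and 7 were as high as FGF1. This is a spread between genes and not between libraries. The study had already named FGF1 as upregulated from the same sequencing. The rank and these counts thus describe a gene already known to be higher, and are no independent evidence. In bulk RNA, fewer cells of a type and less RNA per cell cannot be told apart, so the values do not say whether many cells held a little more FGF1 transcript or few cells held much more.

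**Figure D1:**
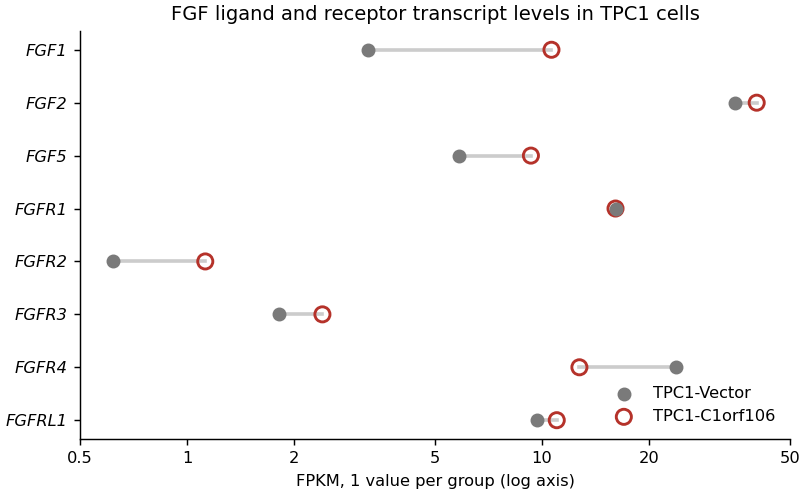
Level of each listed member in FPKM (log axis), with a filled grey point for TPC1-Vector and an open red point for TPC1-C1orf106, 1 value per group and no error bar because the libraries were combined. FGF1 stands at 3.25 and 10.6 FPKM, FGFR4 at 23.8 and 12.7 FPKM, and the points of FGFR1 lie on each other.

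FGF1 lies on the reverse strand of chromosome 5, 142592178 to 142698070 (hg38, counted from 1), and GENCODE release 29 gives it 16 transcripts with 13 different starts. The FPKM value of the gene does not say which of these starts the additional transcript came from. FGFR4 lies on the forward strand of the same chromosome, 177086872 to 177098142, with 16 transcripts and 13 starts. Because these are the members farthest apart in direction, the sequence upstream of their starts is shown, from RefSeq (GRCh38.p14), 5′ to 3′ on the strand of the gene. RefSeq has 4 windows of 250 bases before a start of FGF1 and 2 of FGFR4, and the bases that an annotated exon of the gene covers in GENCODE are left out. Capitals mark matches, on either strand, to the GC box GGGCGG, to the AP-1 motif TGANTCA, to the TATA motif TATAAA and to the κB motif. The lines below give the window before the outermost start of FGF1, the part of the window before its innermost start that lies outside exons, and the same for the outermost start of FGFR4.
FGF1 at chr5:142698071-142698320, reverse strand: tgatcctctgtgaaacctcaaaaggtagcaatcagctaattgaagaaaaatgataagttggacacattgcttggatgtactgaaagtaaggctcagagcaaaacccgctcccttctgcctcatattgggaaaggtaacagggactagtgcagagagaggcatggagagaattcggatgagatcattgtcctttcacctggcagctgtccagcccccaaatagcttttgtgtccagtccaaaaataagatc
FGF1 at chr5:142644302-142644489, reverse strand: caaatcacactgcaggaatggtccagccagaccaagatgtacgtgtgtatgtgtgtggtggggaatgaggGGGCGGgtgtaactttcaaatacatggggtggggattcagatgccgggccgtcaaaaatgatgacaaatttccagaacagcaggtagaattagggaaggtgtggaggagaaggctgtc
FGFR4 at chr5:177086665-177086885, forward strand: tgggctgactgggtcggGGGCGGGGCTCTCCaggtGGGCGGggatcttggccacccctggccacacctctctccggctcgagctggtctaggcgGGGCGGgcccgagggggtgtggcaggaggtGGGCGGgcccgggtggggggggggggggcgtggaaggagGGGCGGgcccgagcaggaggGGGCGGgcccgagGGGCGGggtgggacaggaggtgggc
The outermost FGF1 window had no match to any of the 4 motifs and a GC content of 44.8%, against a median of 58% over the windows of all genes. The innermost one held 1 GC box, 180 bases before the start. It also held 1 AP-1 match, TGAGTCA, 41 bases before the start, in the stretch not shown because an exon of another FGF1 transcript covers it. Of the FGF1 windows not shown, 1 held a GC box (60.8% G and C) and 1 held no match (45.6%). The outermost FGFR4 window was rich in G and C (79.6%) and held 7 GC boxes, between 54 and 233 bases before the start, and 1 κB match that overlaps the farthest of them, while the other FGFR4 window (57.2%) held no match to any of the 4 motifs. Of the 35116 windows of all genes, 42.6% held a GC box, 6.57% an AP-1 match, 10.7% a TATA match and 5.21% a κB match. These are matches of letters in sequence and were not measured as sites in the cells.

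FGF2, the prototype of the family and like FGF1 a ligand without signal peptide, was the most abundant FGF transcript in both groups. It measured 35.0 FPKM without and 40.2 FPKM with added C1orf106, a log2 fold change of 0.20, inside the middle 90% of genes of like level (-0.31 to 0.32). FGF2 shares its deposited position (chromosome 4, 122826708 to 122923004) with NUDT6, a gene on the opposite strand at 27.4 and 28.7 FPKM. The position thus need not be the extent of FGF2 alone. Strand-specific counting is not stated, so it cannot be said how reads from sequence common to the pair were assigned. FGF5, a secreted ligand best known as a brake on hair growth, measured 5.84 and 9.31 FPKM, a ratio of 1.59 and a log2 fold change of 0.63. FGF5 (chromosome 4, 80266588 to 80291017) lay above the middle 90% of genes of like level (-0.36 to 0.37), with 60 of 4077 such genes as high.

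FGF1 thus stood lowest of the 3 ligands in TPC1-Vector and between FGF2 and FGF5 in TPC1-C1orf106, where FGF1 and FGF5 lie close together at 10.6 and 9.31 FPKM. FGF2 transcript was 10.8 times that of FGF1 per length in TPC1-Vector and 3.78 times in TPC1-C1orf106. Of the other 15 secreted FGF ligands in the list, which holds FGF3 to FGF10 and FGF16 to FGF23, FGF18 alone is listed, at 0.346 and 0.332 FPKM, under the level at which genes were kept. The summed level of the 4 secreted ligands listed came to 44.4 FPKM in TPC1-Vector cells and, with C1orf106 added, to 60.5 FPKM. FGF1 made up 7.31% of the sum in TPC1-Vector and 17.6% in TPC1-C1orf106, FGF2 78.8% and 66.5%, and FGF5 13.1% and 15.4%. The ratios, sum and shares all use the FGF2 value and so hold only if it includes few reads of NUDT6. The FGF homologous factors, which stay inside the cell and bind sodium channels, are a branch of the family that does not act through secretion. FGF11 measured 3.48 and 2.26 FPKM (log2 fold change -0.53) and FGF12 1.13 and 1.41 FPKM (0.23), and FGF13 and FGF14 are not listed.

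All 4 kinase receptors are listed, and FGFR4 and FGFR1 carried most of their transcript in both groups. FGFR4, which among the receptors is the one that hormone-like FGFs use in liver, measured 23.8 FPKM in cells with the empty vector and 12.7 FPKM in TPC1-C1orf106. Its level was thus 1.87 times higher in TPC1-Vector, with a log2 fold change of -0.88, the 49th lowest of the 12305 genes. Of 4489 genes of like level, the middle 90% lay between -0.32 and 0.32 and 13 were as low. FGFR1 (chromosome 8, 38411138 to 38468834), the widely expressed receptor of mesenchymal cells, measured 16.1 FPKM in both groups, with a log2 fold change of -0.0013. FGFR3 (chromosome 4, 1793312 to 1808872), known for its part in limiting bone growth, measured 1.82 and 2.41 FPKM (log2 fold change 0.33), inside the middle 90% of genes of like level (-0.47 to 0.51). FGFR2 (chromosome 10, 121478330 to 121598458), whose epithelial splice form receives FGF7 and FGF10, was the least abundant, at 0.619 and 1.13 FPKM, a ratio of 1.82. Its log2 fold change of 0.54 lay inside the middle 90% of genes of like level (-0.47 to 0.64), with 109 of 1685 as high.

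The order of the receptors by level was FGFR4, FGFR1, FGFR3 and FGFR2 in TPC1-Vector. In TPC1-C1orf106 FGFR1 stood above FGFR4, and FGFR3 and FGFR2 followed as before. The ratio of FGFR4 to FGFR1 was 1.48 in TPC1-Vector and 0.791 in TPC1-C1orf106. FGFR1 stood 8.88 times above FGFR3 in TPC1-Vector and 6.69 times in TPC1-C1orf106, and FGFR3 stood 2.93 and 2.14 times above FGFR2. Whether any of these neighbours differ beyond the spread of libraries cannot be said from 1 value per group. The summed FPKM of the 4 kinase receptors was 42.4 in TPC1-Vector and 32.4 in TPC1-C1orf106. FGFR4 made up 56.2% of it in TPC1-Vector and 39.4% in TPC1-C1orf106, FGFR1 38.0% and 49.7%, FGFR3 4.28% and 7.43%, and FGFR2 1.46% and 3.48%. The receptor transcripts present to receive FGF1 were thus mainly those of FGFR1 and FGFR4, and in the cells with more FGF1 transcript the FGFR4 value was lower. Transcript levels do not give the protein at the cell surface. GENCODE lists 43 transcripts of FGFR1, 27 of FGFR2, 11 of FGFR3 and 16 of FGFR4, and the gene values do not separate the IIIb and IIIc splice forms, which set the ligand preference of FGFR1 to FGFR3.

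**Figure D2:**
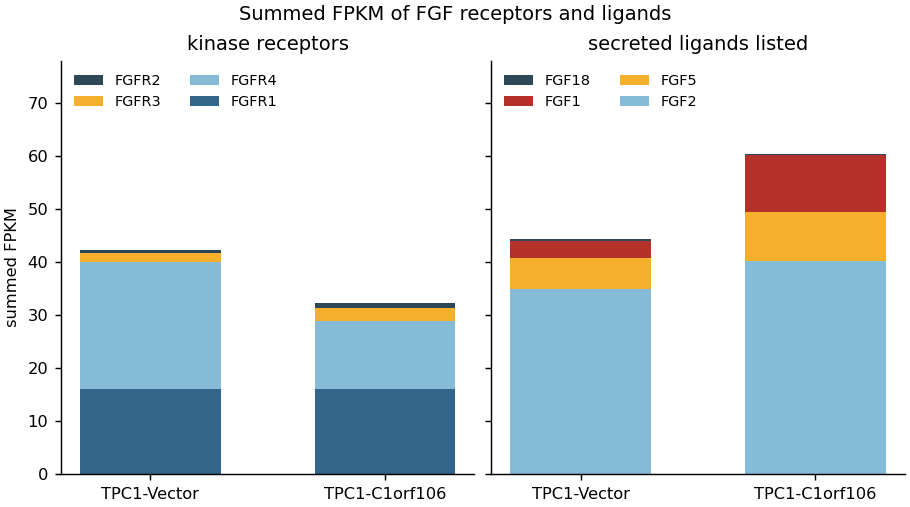
Stacked bars of summed FPKM in each group, on the left the kinase receptors and on the right the secreted ligands listed, with no error bars because there is 1 value per group. The receptor sum is 42.4 and 32.4 FPKM and differs mainly in FGFR4, and the ligand sum is 44.4 and 60.5 FPKM. The FGF2 part of the ligand sum may include reads of NUDT6.

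FGFRL1 (chromosome 4, 1011822 to 1026898) binds FGF ligands and heparin but has no kinase domain. It measured 9.71 and 11.0 FPKM, a log2 fold change of 0.17, inside the middle 90% of genes of like level (-0.34 to 0.35). Per length, FGFR1 transcript was 1.66 times that of FGFRL1 in TPC1-Vector and 1.46 times in TPC1-C1orf106. With FGFRL1 counted in the receptor sum, FGFR1 made up 30.9% and 37.1%. FGFBP1, a secreted carrier that frees FGF1 and FGF2 from the matrix, is not listed, and the same holds for FGFBP2 and for KL and KLB, the klotho co-receptors of the hormone-like FGFs. FGFBP3 is listed at 0.455 and 0.450 FPKM, under the level at which genes were kept.

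**Figure D3:**
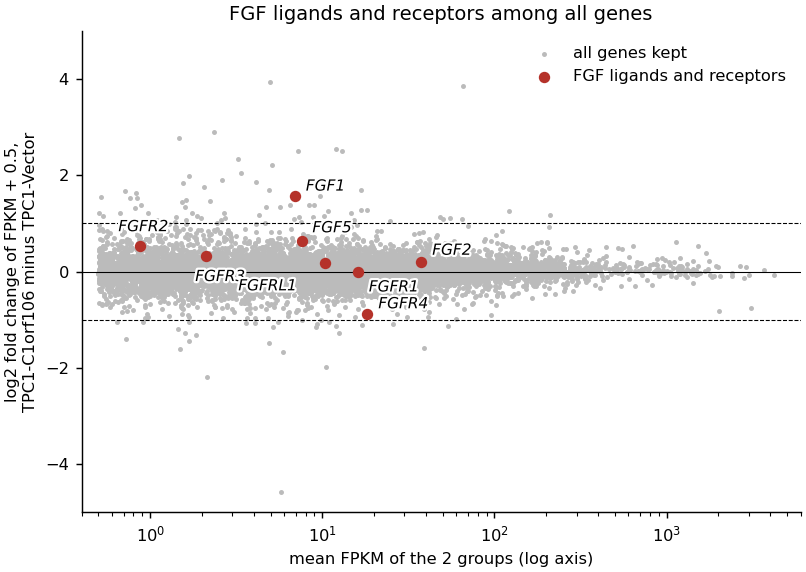
Log2 fold change of FPKM + 0.5 (TPC1-C1orf106 minus TPC1-Vector) against the mean FPKM of the groups (log axis), with 1 grey point per gene kept, the members in red and dashed lines at 2-fold; 3 genes lie outside the axes. FGF1 at 1.57 is beyond the upper line, and FGFR4 at -0.88 is short of the lower one.

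Genes close to the members on the chromosome were compared with them. Within 5 Mb on each side of FGF1, 68 genes had a median log2 fold change of 0.018, with 35 higher and 33 lower, and the 76 genes around FGFR4 had a median of 0.030, with 43 higher and 33 lower. The values of FGF1 and FGFR4, 1.57 and -0.88, lay far from these medians. Within 5 Mb the genes ran from -4.59 to 0.95 around FGF1 and from -0.50 to 1.27 around FGFR4. Within 10 Mb of FGF1 the highest was TGFBI at 1.38. FGFR2 stood in a stretch of chromosome 10 where 45 of 48 genes within 5 Mb were lower in TPC1-C1orf106, with a median of -0.32 and a highest value of 0.42. FGFR2, at 0.54, was above all 48 at the pseudocount of 0.5. With a pseudocount of 1 FGFR2 stood at 0.39, and its neighbours were not computed at that setting. Around FGF5 the median was -0.057 over 41 genes (0.10 over the 6 within 2 Mb), around FGF2 -0.10 over 25, around FGFR3 0.028 over 58, around FGFR1 0.014 over 39 and around FGFRL1 0.030 over 52.

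**Figure D4:**
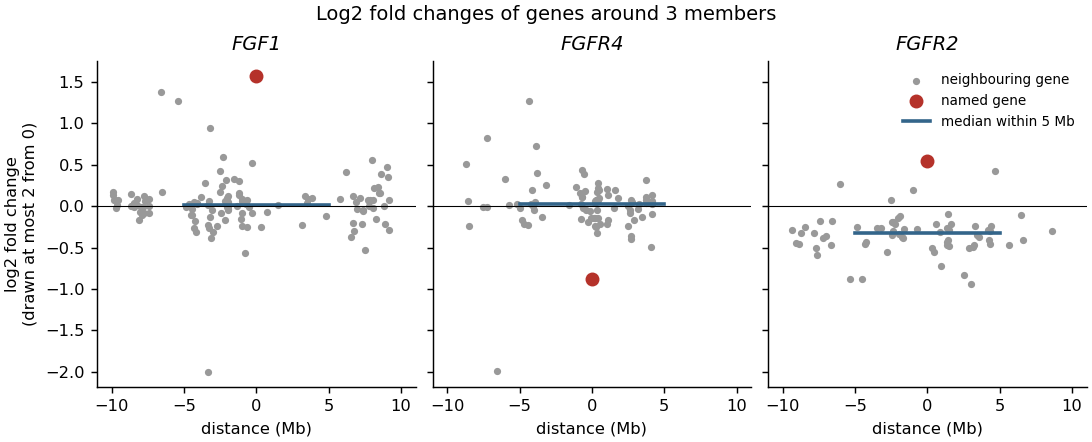
Log2 fold change (TPC1-C1orf106 minus TPC1-Vector) of genes within 10 Mb of FGF1, FGFR4 and FGFR2 against their distance in Mb, values beyond 2 drawn at 2, with the named gene in red and the median within 5 Mb as a blue line. The line lies at 0.018 for FGF1, 0.030 for FGFR4 and -0.32 for FGFR2.

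The wider pathway was described from lists by role, 107 genes without the members. Of these 74 are listed and 72 were kept, 34 higher and 38 lower (30 and 42 after quantile normalization), with a median of -0.016, and 1 of the 72 was past 2-fold. Over all genes kept, 50.8% were higher, 0.61% were past 2-fold higher and 0.244% past 2-fold lower. Release of FGF1 uses a complex with S100A13, a small calcium-binding protein, and the kinase SPHK1. S100A13, which shares its deposited position with 2 other genes, measured 160 and 217 FPKM (log2 fold change 0.44). SPHK1 measured 18.1 and 15.3 FPKM (-0.24). SYT1, the synaptotagmin of the same complex, is not listed. In the release list of 5 genes 4 are listed, 2 higher and 2 lower. The 8 listed intracellular partners of FGF1 ranged from -0.21 (FIBP, an FGF1-binding protein, 32.7 and 28.2 FPKM) to 0.12 (PHB, 142 and 155 FPKM), with 6 higher and 2 lower as deposited and 3 higher and 5 lower after quantile normalization.

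Heparan sulfate is the co-receptor of FGF1. Of 13 core proteins that carry it 9 are listed, 6 higher and 3 lower. Their median was 0.39 on the log2 scale and none of the 9 was past 2-fold. Among all genes kept 50.8% were higher, 0.61% past 2-fold higher and 0.244% past 2-fold lower. Agrin, AGRN, a proteoglycan of basement membranes, measured 90.5 and 132 FPKM (0.55), and at the other end the syndecan SDC3 measured 12.9 and 12.0 FPKM (-0.10). The syndecan SDC4 measured 93.4 and 136 FPKM (0.54), in a part of chromosome 20 where the 67 genes within 5 Mb had a median of 0.33. Perlecan, HSPG2, measured 15.9 and 21.7 FPKM (0.44) and the glypican GPC1 11.7 and 15.5 FPKM (0.39). Of 20 enzymes that build or edit the chain, 14 are listed, 2 higher and 12 lower, with a median of -0.069. SULF2, which removes 6-O-sulfates that ligand and receptor binding uses, measured 2.06 FPKM without and 7.80 FPKM with added C1orf106, a log2 fold change of 1.70, and is the 1 list gene besides FGF1 past 2-fold. The 71 genes within 5 Mb of SULF2 had a median of 0.32. The sulfotransferase HS3ST1 was the lowest of the list at -0.62 (0.861 and 0.385 FPKM). Its value was -0.99 with a pseudocount of 0.1 and -1.16 with none, the last of which is past 2-fold lower. HS6ST1, which adds 6-O-sulfates, measured 13.6 and 10.3 FPKM (-0.39).

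Of 11 membrane partners of the receptors, 8 are listed, 3 higher and 5 lower, with a median of -0.12. The adhesion molecule NCAM1 measured 0.843 and 1.31 FPKM (0.43), and NRP1, a co-receptor of several growth factors, 28.3 and 23.5 FPKM (-0.26). All 14 adaptors and transducers are listed, 9 higher and 5 lower, with a median of 0.080. They ran from CBL, a ubiquitin ligase that ends receptor signalling, at -0.16 (11.2 and 9.91 FPKM), to PLCG1, the phospholipase that binds the receptor tail directly, at 0.36 (22.7 and 29.3 FPKM). PLCG1 also lies on chromosome 20, where the 65 genes within 5 Mb of it had a median of 0.21, and shares its deposited position with another gene. The main docking protein of the receptors, FRS2, measured 10.0 and 10.8 FPKM (0.11).

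Of genes that FGF signalling is known to induce, the feedback inhibitors stood on both sides of 0 and the PEA3 factors were all lower. Of 10 feedback inhibitors, 5 were higher and 5 lower, or 4 and 6 after median-of-ratios scaling or quantile normalization. Their median was -0.029 as deposited and 0 were past 2-fold, where 0.61% of all genes kept were past 2-fold higher and 0.244% lower. Among those higher, SPRY3 averaged 0.528 FPKM, close to the minimum for keeping a gene, and PHLDA1 stood at 0.0034. With a mean of at least 1 FPKM required, the median was -0.061. SPRY2, a Sprouty inhibitor of the ERK pathway, measured 17.2 and 12.2 FPKM (-0.48), SPRY3 0.371 and 0.686 FPKM (0.45), and DUSP6, the phosphatase that acts on ERK, 8.85 and 11.0 FPKM (0.30). The 3 PEA3 factors were lower in TPC1-C1orf106, ETV5 at 27.2 and 17.9 FPKM (-0.59), ETV1 at 4.34 and 3.38 FPKM (-0.32) and ETV4 at 6.32 and 5.03 FPKM (-0.30). ETV5 lies among 48 genes within 5 Mb that had a median of -0.23. MMP9, the matrix metalloproteinase that the study placed downstream of FGF1, measured 0.188 and 1.495 FPKM (log2 fold change 1.54, between 1.07 with a pseudocount of 1 and 2.99 with none). The study's evidence for that placement was silencing of FGF1 in INAVA-overexpressing cells, which inhibited the MMP9 rise. It also measured MMP9 by RT-PCR, western blot and gelatin zymography. MMP9 lies on chromosome 20, among the 29 genes within 2 Mb of SULF2. These had a median of 0.33, with 26 higher and 3 lower. GAPDH, a housekeeping gene, measured 3107 and 2947 FPKM (-0.076 as deposited and 0.17 after quantile normalization).

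**Figure D5:**
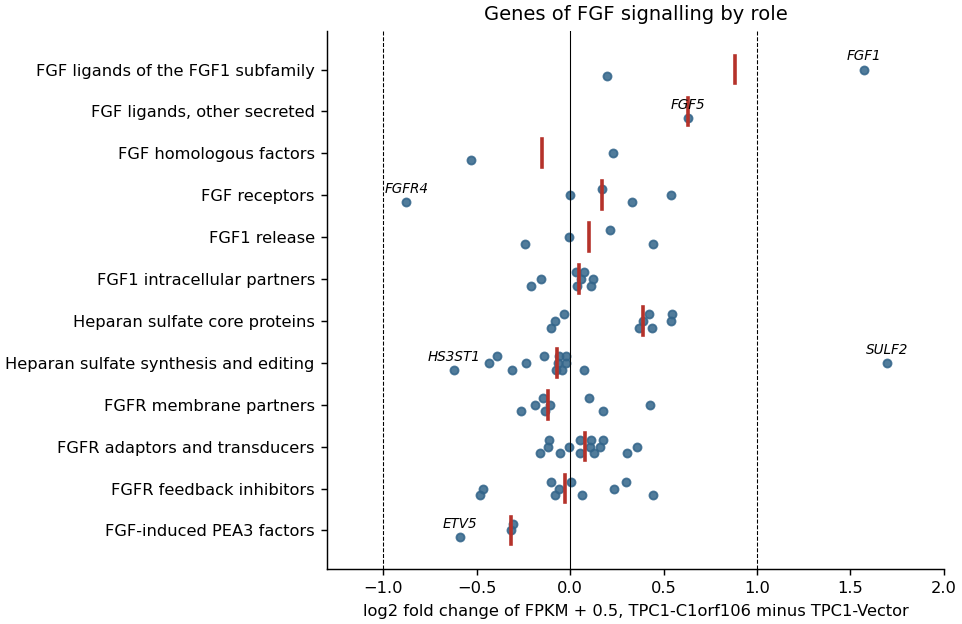
Log2 fold change of FPKM + 0.5 (TPC1-C1orf106 minus TPC1-Vector) for each gene kept of the role lists, with 1 blue point per gene, a red bar at the median of the list and dashed lines at 2-fold. FGF1 at 1.57 and SULF2 at 1.70 are beyond the lines, and the 3 PEA3 factors lie between -0.59 and -0.30.

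Over the 2 values of log2(FPKM + 0.5), the genes nearest to FGF1 by Euclidean distance were SCARNA12 (3.37 and 9.63 FPKM, distance 0.14), which shares its deposited position with another gene, HIST1H2BC, KHDRBS3, CDH13 and TGFBI (4.41 and 12.3 FPKM, 0.44). The genes nearest to FGFR1 were PANK2, TMEM184C, RPP38, NFKB2 and KTI12, all within 0.014, of which KTI12 shares its deposited position with another gene. With 1 value in each of 2 groups, such likeness means a like level and a like difference and no more.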

How the data were processed

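RNA of 4 TPC1 libraries was sequenced, 2 per group. Per the labels, the authors' processing used CASAVA, Cufflinks 2.1.1 and Cuffdiff with the build hg38, and the deposited table gives FPKM values, 1 per gene and group. The annotation and strand setting are not given in the sources used here. The library kit is named differently in the labels (NEBNext Ultra) and the methods (VAHTS mRNA-seq v2). FPKM divides by transcript length and library size, so genes may be compared within a group, but counts and depth are lost and no interval can be given. The table also holds the authors' log2 ratio, p-value and q-value per gene, which were not used.

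Genes whose mean over the groups reached 0.5 FPKM were kept, and log2(FPKM + 0.5) was subtracted. A call means past 2-fold. The planned limma fit for libraries needs values per library and was not run. The members and lists were chosen with earlier results of these data known. Named in the text are the members, C1orf106, MMP9 and GAPDH, in each list the genes past 2-fold or otherwise the highest and the lowest, and the 5 genes nearest to FGF1 and to FGFR1; other genes were chosen after their values were seen. Positions were compared with GENCODE release 29, and promoter sequences came from RefSeq. Scripts were tested on simulated data. Python 3.11.15, numpy 2.4.6, pandas 2.3.3 and matplotlib 3.10.9 were used. Alternatives were pseudocounts of 0.1 and 1, no filter or a mean of 1 FPKM or more, median-of-ratios scaling, quantile normalization, a fold of 1.5, FGFRL1 in the receptor sum and windows of 2 and 10 Mb. No pseudocount, and FGF1 minus the median of genes within 5 Mb, were added after the data were seen.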

Additional observations from a re-analysis of the deposited data

How the results depend on the processing

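Several values near 0 took the other sign under an alternative. After quantile normalization the median of the intracellular partners of FGF1 was -0.016 in place of 0.047, and GAPDH was 0.17 in place of -0.076. The median of genes around FGF5 was 0.10 within 2 Mb and -0.057 within 5 Mb, and that around FGFR1 0.014 within 5 Mb and -0.017 within 10 Mb. The log2 fold change of FGF1 was 1.68 with a pseudocount of 0.1, 1.45 with 1 and 1.71 with none (added after the data were seen). At a fold of 1.5 the members counted were 2 higher and 1 lower, in place of 1 and 0 at 2-fold, and with a pseudocount of 0.1 FGFR2 (0.77) was past 1.5-fold too. With FGFRL1 in the sum, FGFR1 made up 30.9% in TPC1-Vector and 37.1% in TPC1-C1orf106, in place of 38.0% and 49.7%. FGFR2, at under 1 FPKM on average, ranged from 0.39 with a pseudocount of 1 to 0.86 with none, and was also 0.86 after subtraction of the median of genes within 5 Mb. MMP9 ranged from 1.07 to 2.99 with the pseudocount. HS3ST1, short of 2-fold at -0.62, ranged from -0.43 with a pseudocount of 1 to -1.16 with none. Scaling moved the median of all genes, 0.0033, by less than 0.1, to -0.00053 by median-of-ratios and -0.0063 by quantile normalization. No paired analysis was possible because the table gives 1 value per group, and leaving out a library could not be run for the same reason. The depth per library is unknown, so it cannot be said how much of any difference is counting error.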
